A study of Homo sapiens with 30 samples.

Results

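Heat shock of HCT116 cells held in ML-792 was read in 6 of the 30 libraries of the series, 3 of heated cells and 3 of unheated cells, all given the drug. HCT116 is a colorectal cancer line. ML-792, ML00754792 in the labels, blocks the SUMO-activating enzyme, a dimer of SAE1 and UBA2 and the first enzyme in the attachment of SUMO proteins to others. Heated ML-792 cells had 500 nM drug for 2 h, 0.5 h at 43 °C and 1 h of recovery at 37 °C, 3.5 h in all, and unheated ML-792 cells had the same dose for 3.5 h without the heat step. Heated and unheated cells in DMSO at 0.01%, the vehicle, had the same times and serve here for the test of whether the heat shock change differed under the drug (n = 3 in each of the 4 groups, 12 libraries in the fit). The line carries no engineered change by the labels. The libraries are called biological triplicates without a word on what set them apart, so p-values measure only the spread between these samples, which may be technical. Sample numbers in the labels run in one block for heated cells and in another for unheated cells, so heat shock and whatever that numbering marks cannot be told apart. Genes were kept at 1 FPKM or more in at least 3 of the 6 ML-792 columns (FPKM, fragments per kilobase of transcript, scaled to the library), which left 11955 of the 30372 genes in the table. At the edge of that rule, IQCD stood just inside with a third-highest value of 1.00028 FPKM and DNAJC18 just outside with 0.999122 FPKM.

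Heat unfolds proteins, and the cell answers within minutes through HSF1, a transcription factor that is held inactive by chaperones, assembles on heat and binds inverted repeats of GAA and TTC ahead of chaperone genes. Its products refold proteins (the HSP70 and HSP90 systems with their HSP40 and other helpers), hold them soluble (small HSPs) or pass them on for destruction (ubiquitin and the proteasome). SUMO conjugation climbs on heat in mammalian cells, with HSF1 itself among the targets.

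A pattern of the repeats that HSF1 binds was in the windows of 7 of the genes that rose at least 2-fold, and 3 of them are shown so that the letters can be read. They are the 250 bases before the transcription start in RefSeq (GRCh38.p14), 5′ to 3′ on the strand of the gene, with capitals on the search pattern of alternating repeats, TTCNNGAANNTTC or GAANNTTCNNGAA (the same pattern read from either strand). HSPA6 lies at chr1:161524290-161524539 on the plus strand, SERPINH1 at chr11:75562003-75562252 on the plus strand and HSPA8 at chr11:123062137-123062386 on the minus strand.
HSPA6: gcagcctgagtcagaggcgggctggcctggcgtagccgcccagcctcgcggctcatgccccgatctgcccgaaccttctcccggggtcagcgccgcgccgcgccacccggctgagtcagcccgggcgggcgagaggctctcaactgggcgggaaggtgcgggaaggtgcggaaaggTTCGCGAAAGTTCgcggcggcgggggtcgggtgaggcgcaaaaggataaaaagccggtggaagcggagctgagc
SERPINH1: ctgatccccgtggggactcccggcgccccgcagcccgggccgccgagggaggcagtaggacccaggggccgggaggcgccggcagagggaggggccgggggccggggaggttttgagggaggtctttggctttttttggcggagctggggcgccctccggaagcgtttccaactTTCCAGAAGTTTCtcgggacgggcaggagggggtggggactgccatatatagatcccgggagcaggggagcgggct
HSPA8: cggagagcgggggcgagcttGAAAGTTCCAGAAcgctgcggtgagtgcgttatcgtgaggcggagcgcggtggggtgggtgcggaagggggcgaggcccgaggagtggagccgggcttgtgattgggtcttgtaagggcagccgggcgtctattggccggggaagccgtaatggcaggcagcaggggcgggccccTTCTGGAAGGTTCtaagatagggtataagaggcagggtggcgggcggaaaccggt
The first base of the pattern lies at position -74 from the start in HSPA6, a heat-inducible HSP70, and at -76 in SERPINH1, the collagen chaperone HSP47. HSPA8, the constitutive HSP70, holds it at positions -230 and -55. Of the other genes that rose at least 2-fold under ML-792, 4 more hold it, with the 13 bases below, which begin at -145 in ABHD3, -178 in FAM149A, -127 in TDRG1 and 3 in DNAJA1, an HSP40 whose match lies after the start.
ABHD3: TTCTGGAAGGTTC
FAM149A: TTCCAGAACCTTC
TDRG1: GAACTTTCTGGAA
DNAJA1: GAACTTTCCAGAA
A window of 250 bases before to 50 after the start was available for 204 of the 325 genes that rose at least 2-fold (62.8%), for 80 of the 118 that fell at least 2-fold (67.8%) and for 8641 of all 11955 tested. The pattern was in at least 1 window of 7 of the 204 (3.43%), 0 of the 80 and 46 of the 8641 genes (0.532%). Counted by window instead, it was in 172 of 35116 windows of the whole RefSeq table (0.49%). The 2 counts are not alike, since the tested genes had 1.47 windows each on average. Of the 51 genes with a window that rose at least 4-fold, 2 held it (3.92%). It was not in the windows of HSPA1A, HSPA1B, DNAJB1, BAG3, JUN, DNAJA4, ZFAND2A or PNLDC1, which are among the strongest rises. The shorter pair of repeats, GAANNTTC or TTCNNGAA, which the longer pattern contains, was in 25.5% of the genes that rose 2-fold, 16.2% of those that fell 2-fold and 13.4% of all tested, and HSPA1A, HSPA1B, DNAJB1, DNAJA4, JUN and ZFAND2A hold it. A match is a run of letters in a window and was not tested as a binding site.

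Sequencing depth could be compared only in relative terms. It was read as the commonest ratio of FPKM in unheated ML-792 library 1 to FPKM in each library, over genes under 0.3 FPKM in both. Library 1 stands at 1 by definition, and 4.92 to 9.95% of ratios lay at the commonest value. Relative depth ran from 0.774 to 1.04 in the 3 heated ML-792 libraries and from 1 to 1.29 in the 3 unheated ones. In DMSO it ran from 1.05 to 1.16 in heated and from 1.05 to 1.53 in unheated libraries. Summed FPKM, which no step held equal, was 667698 to 732249 in heated and 555202 to 575977 in unheated ML-792 cells, and 608118 to 714063 in heated and 552949 to 562939 in unheated DMSO cells. Replicates correlated at 0.9907 or more within each group, and the median SD between replicates on the log2 scale was 0.118 in heated and 0.046 in unheated ML-792 cells. As a bulk measurement these values cannot tell a change in the share of cells that carry an RNA apart from a change in RNA per cell.

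Of 18 colorectal epithelium markers, 9 passed the filter. EPCAM was at 254, 206 and 259.7 FPKM in heated and 212, 216 and 216 FPKM in unheated ML-792 cells, while CDX1, ASCL2 and TFF3 were listed at 0 in all 6. KRT8, KRT18 and CDX2 were called higher with heat and none lower, but with equal totals KRT18 turned (-0.07), CDX2 lost its call (0.04, adjusted p = 0.647) and 1 marker was higher and 1 lower. The KRT18 call was also lost in 9 of 12 fits that left out 1 library (adjusted p up to 0.155). Of 15 mesenchymal markers 4 passed and 3 were called higher, with a summed level of 21.59 to 24.17 FPKM in heated and 5.25 to 5.692 FPKM in unheated ML-792 cells. COL1A1 was most of the heated sum and the smaller part of the unheated one (15.1, 18.3 and 16.2 against 1.53, 1.57 and 1.67 FPKM, a log2 change of 2.76 ± 0.08). The partner collagen COL1A2 and COL3A1 reached 0.636 and 0.757 FPKM in heated ML-792 library 1 and were lower elsewhere. Of 14 blood and endothelial markers 2 passed, HBA1 and CD68, both called higher (CD68 not with equal totals, at 0.13 and an adjusted p of 0.169), with the list summing to 10.11 to 17.23 FPKM in heated and 3.822 to 4.696 FPKM in unheated cells. The beta globin gene HBB did not exceed 0.211 FPKM in any of the 6 libraries, and 2 of the 14 were listed at 0 in all 6. The part of other cells in these levels was not tested.

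Heat shock under ML-792 raised inducible chaperones of the HSP70, HSP40, HSP90 and small HSP families, among them HSPA6, which was all but silent without heat, and HSPA1B, which became 30.9 times as abundant, and raised the early response genes JUN, FOS and EGR3. MYC, SOX9 and DUSP6 fell to 0.273, 0.201 and 0.298 times their unheated level. By limma on log2(FPKM + 1) with Benjamini-Hochberg adjustment over all genes tested and a threshold of 0.05, 4696 genes (39.3%) were called higher and 2700 (22.6%) lower in heated than in unheated ML-792 cells (61.9% in either direction). By at least 2-fold, 325 (2.72%) were higher and 118 (0.987%) lower (3.71% in either direction). All 3 heated values lay above all 3 unheated ones in 5099 genes (42.7%) and below them in 2917 (24.4%). Genes under 1 FPKM in all 3 unheated libraries entered only through their heated values: 280 did so, and 279 of them were called higher. Likewise, 65 genes entered only through their unheated values, and 60 of them were called lower. With a library at 1 FPKM or more on the lower side, 235 genes were higher and 117 lower by at least 2-fold.

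**Figure D1:**
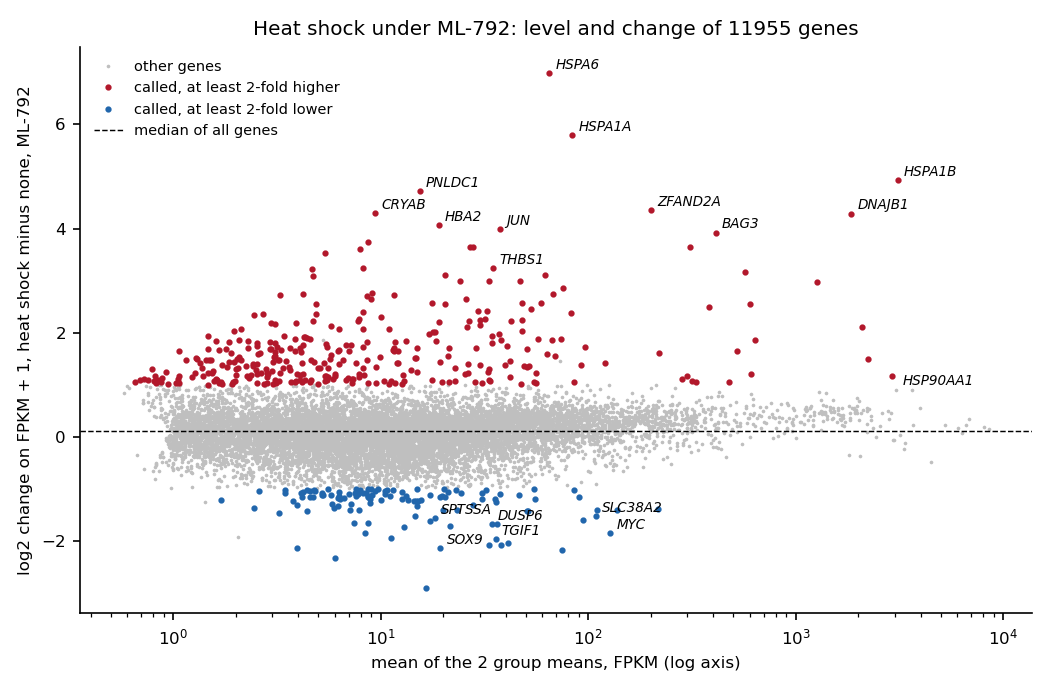
Change with heat shock under ML-792 (vertical axis, log2 of FPKM + 1, heated minus unheated) against the mean of both group means (horizontal log axis, FPKM), 1 point a gene for the 11955 genes tested. Coloured points are the 325 genes called higher and the 118 called lower by at least 2-fold, and the dashed line marks the median of all genes, 0.10: the largest rises reach 6.99 and span the whole range of levels, and the falls reach -2.90.

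The direction of the small changes depends on how libraries are scaled. As deposited, 63.5% of calls were higher and the median change over all genes was 0.10 on the log2 scale. With libraries scaled by the median of gene ratios that median shifted by -0.09 and 50.1% of calls were higher (3500 higher, 3487 lower), and with every library brought to the same summed FPKM it shifted by -0.27 and 24.2% were higher (1728 higher, 5424 lower). The median change stayed positive with equal totals for the HSP70, HSP90, chaperonin, immediate early, ATF4, endoplasmic reticulum and ribosomal protein lists described next and for mesenchymal and blood markers, and turned negative for the HSP40, small HSP, heat shock factor, ubiquitin, proteasome, SUMO, MAP kinase feedback, p53, NRF2, NF-kB, hypoxia, ID and SMAD, DNA replication, ribosome biogenesis, SR and CLK, snoRNA host, histone, cholesterol, mitochondrial and colorectal lists. Counts of each gene list with equal totals therefore stand beside the deposited ones, and list medians, where given, are set against the median of all genes. List counts are to be read against all 11955 genes, of which 39.3% were called higher and 22.6% lower as deposited. With equal totals 1728 of them were higher and 5424 lower.

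The HSP70 and HSP110 family holds the ATP-driven chaperones that bind unfolded stretches. All 13 members passed the filter, 10 were called higher and 0 lower, 7 of the 10 at least 2-fold, and the median change was 1.16, which is 1.06 above the median of all genes (7 higher and 3 lower with equal totals). Together they came to 11110 to 12970 FPKM in heated and 2652 to 2708 FPKM in unheated ML-792 cells. HSPA6 had 109.5, 148 and 131 FPKM in heated ML-792 cells, against 0.0155, 0.0226 and 0.012 FPKM in unheated ML-792 cells. No unheated library came near any heated one, and on the log2(FPKM + 1) scale, which understates a rise out of near silence, the change was 6.99 ± 0.11 (adjusted p = 1.59e-13). HSPA1B, the main inducible HSP70, reached 5244, 7104 and 5693 FPKM with heat, against 189, 198 and 197 FPKM without, a log2 change of 4.93 ± 0.11 (adjusted p = 2.42e-12). In heated cells it was the most abundant RNA of the family. Its near-identical neighbour HSPA1A was listed at 86.8, 66.1 and 346 FPKM with heat and 1.06, 1.56 and 1.28 FPKM without. The third heated library carried most of that mean, and since reads of both genes can be assigned to either, the split between them is uncertain. HSPA1L, the third gene of that cluster, was at 2.73, 2.09 and 2.36 against 0.224, 0.191 and 0.139 FPKM. HSPA6 and HSPA1L passed the filter only through their heated values. Nearly all such genes were called higher, so these 2 calls were all but set by the filter.

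HSPH1, the HSP110 that exchanges nucleotide on HSP70, had 947, 983 and 1168 FPKM in heated and 177, 174 and 176 FPKM in unheated ML-792 cells, a log2 change of 2.54 ± 0.08. HSPA4L, a relative of HSPH1, had 97.6, 85.7 and 123 against 15.9, 16.3 and 16.1 FPKM, a change of 2.58 ± 0.11, and HSPA4 changed by 0.48 ± 0.06, a call lost with equal totals (0.18, adjusted p = 0.0572). HSPA8 stood at 4019, 4014 and 4109 FPKM with heat and 1795, 1829.5 and 1809 FPKM without. As deposited, this already abundant chaperone slightly more than doubled (2.23-fold). Groups did not overlap for any of these. The median change of the family, 1.16 as deposited and equal to that of HSPA8, was 0.86 with equal totals, which is under 2-fold. The mitochondrial HSPA9 changed by 0.27 ± 0.05, or -0.02 with equal totals, and HSPA13, HSPA14 and HSPA12A stood at -0.10, -0.09 and 0.02 without passing the test.

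**Figure D2:**
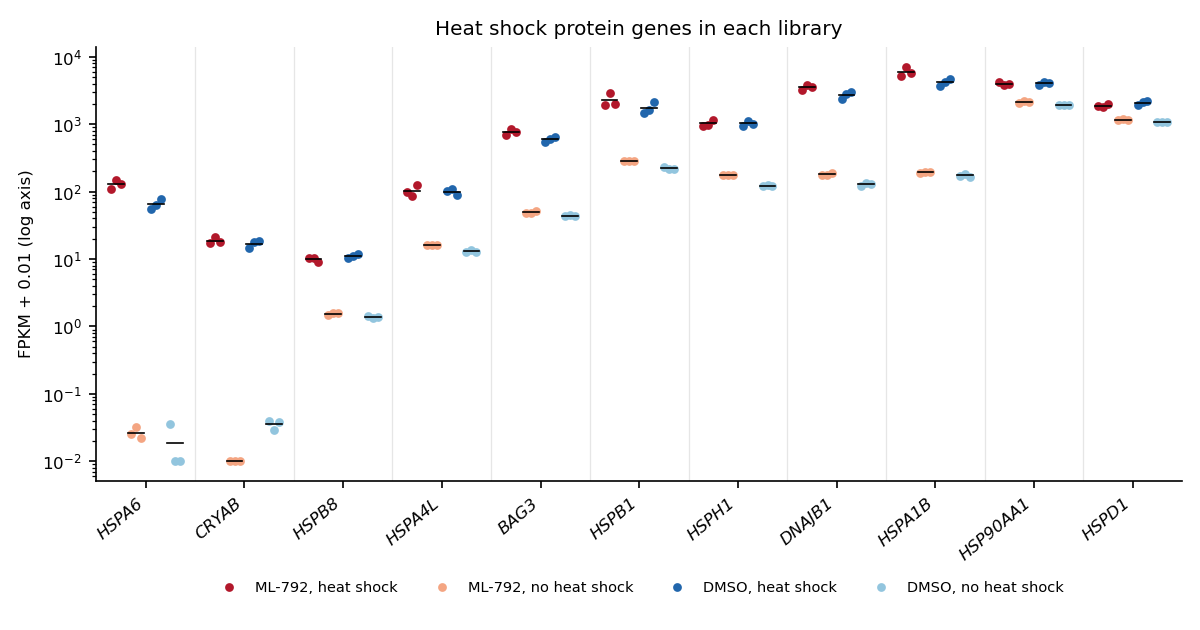
FPKM of 11 heat shock proteins in each of the 12 libraries (vertical log axis, FPKM + 0.01), by group from heated ML-792 and unheated ML-792 cells to heated and unheated DMSO cells, with the mean of each group as a line. HSPA6 and CRYAB leave near-zero levels with heat, HSPA1B averages 6014 FPKM and DNAJB1 3534 FPKM in heated ML-792 cells, and HSP90AA1 and HSPD1 move by less than 2-fold under ML-792.

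HSP40 proteins carry a J domain that hands clients to HSP70 and starts its ATPase. Of 36 tested, 15 were called higher and 4 lower, 5 and 0 by at least 2-fold, with a median change of 0.14, or 0.04 above that of all genes (8 higher and 14 lower with equal totals, where the median turns negative). The share called higher was near the 39.3% of all genes. DNAJB1, the partner of inducible HSP70 that also holds HSF1 in check, had 3246, 3808 and 3549 FPKM with heat and 175, 177 and 187 FPKM without, a log2 change of 4.29 ± 0.09. DNAJA4 had 547, 591 and 591 against 46.4, 43.4 and 45.6 FPKM, a change of 3.65 ± 0.06. DNAJA1 had 979.5, 1077 and 954 against 277, 283 and 271 FPKM, a change of 1.85 ± 0.07. At the other end, DNAJC10, a reductase of the endoplasmic reticulum, fell by 0.82 on the log2 scale (17.4, 15 and 20 against 32, 31.6 and 30.4 FPKM), and DNAJB14 and DNAJC16 fell by 0.53 and 0.44, the fall in DNAJB14 being absent (0.03) once the trend on GC content and length was removed.

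HSP90 and its cochaperones mature kinases and receptors. All 22 passed, with 17 called higher and 2 lower, 5 and 0 by at least 2-fold, and a median change of 0.42, which is 0.31 above all genes (10 higher and 4 lower with equal totals). The inducible HSP90AA1 had 4154, 3819 and 3948 FPKM in heated and 2072, 2168 and 2133 FPKM in unheated ML-792 cells, a change of 0.90 ± 0.06, and HSP90AB1 changed by 0.89 ± 0.07. FKBP4, a prolyl isomerase that docks on HSP90, moved most of the list (746, 857 and 757 against 246, 253 and 254 FPKM, 1.64 ± 0.08). STIP1, which links HSP70 to HSP90, changed by 1.04 ± 0.06, the ATPase activator AHSA1 by 1.06 ± 0.08 and NUDC by 1.17 ± 0.10. CACYBP, the calcyclin-binding protein, had 389.6, 368 and 401 against 178, 183 and 178 FPKM. ST13, the HSP70-interacting protein HIP, changed by 0.93 ± 0.09. CDC37L1 was called lower by 0.49, a call lost once the trend on GC content and length was removed (-0.10, adjusted p = 0.171), and FKBP5 by 0.15 in a call lost in 5 of 12 fits that left out 1 library (adjusted p up to 0.113), while the p23 cochaperone PTGES3 had 307, 289 and 415 against 366, 380.0 and 352 FPKM and did not pass (adjusted p = 0.313).

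Small HSPs hold unfolded proteins soluble and BAG proteins release HSP70 from its clients. Of 16 listed genes 10 passed the filter, 5 were called higher and 2 lower, 4 and 0 by at least 2-fold, with a median change of 0.14 (0.04 above all genes). CRYAB, alpha B crystallin, was listed at 0 FPKM in all 3 unheated ML-792 libraries and at 17.4, 21.2 and 17.6 FPKM in the heated ones. It passed the filter only through its heated values. BAG3, which couples HSP70 and small HSPs to autophagy, had 690.2, 851 and 775 against 48.7, 48.8 and 52 FPKM, a change of 3.92 ± 0.08. Its partner HSPB8 had 10.4, 10.5 and 9.04 against 1.45, 1.56 and 1.55 FPKM, a change of 2.12 ± 0.07. HSPB1, or HSP27, had 1914, 2862 and 1966 against 281, 280.5 and 279.5 FPKM, a change of 2.97 ± 0.15. These 4 made up the whole set of 2-fold changes, whereas BAG4 fell by 0.70, BAG5 was called lower by 0.15 (lost in 10 of 12 fits that left out 1 library, adjusted p up to 0.111), and BAG1 and BAG2 did not pass, with changes of -0.08 and 0.06. With equal totals the list had 4 higher and 5 lower.

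Chaperonins, which fold proteins in a closed chamber, and prefoldin, which delivers to them, had 13 of 16 called higher and 1 lower, none by 2-fold (median change 0.37, 0.27 above all genes, 7 higher and 2 lower with equal totals). The mitochondrial pair HSPD1 and HSPE1 changed by 0.69 ± 0.07 and 0.86 ± 0.08. HSPE1 had 1699.7, 1697 and 1593 FPKM with heat and 896, 960.4 and 899.9 FPKM without, and the prefoldin subunit VBP1 fell by 0.47.

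The factors that drive the response moved little by comparison. HSF1 had 42.6, 48.8 and 42.6 FPKM in heated and 37.4, 37.5 and 35.9 FPKM in unheated ML-792 cells, a change of 0.26 ± 0.07 (adjusted p = 0.00656), and -0.03 with equal totals. HSF2 fell by 0.75 (9.88, 7.08 and 9.19 against 15.2, 16.1 and 14.3 FPKM), and HSF4, low in these cells, changed by 0.71 ± 0.14. HSBP1, a binding protein of HSF1, changed by 0.18 ± 0.06, or -0.11 with equal totals. In all, 4 of 6 listed heat shock factor genes passed the filter, 3 called higher and 1 lower (median change 0.22, with 1 higher and 2 lower at equal totals).

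**Figure D3:**
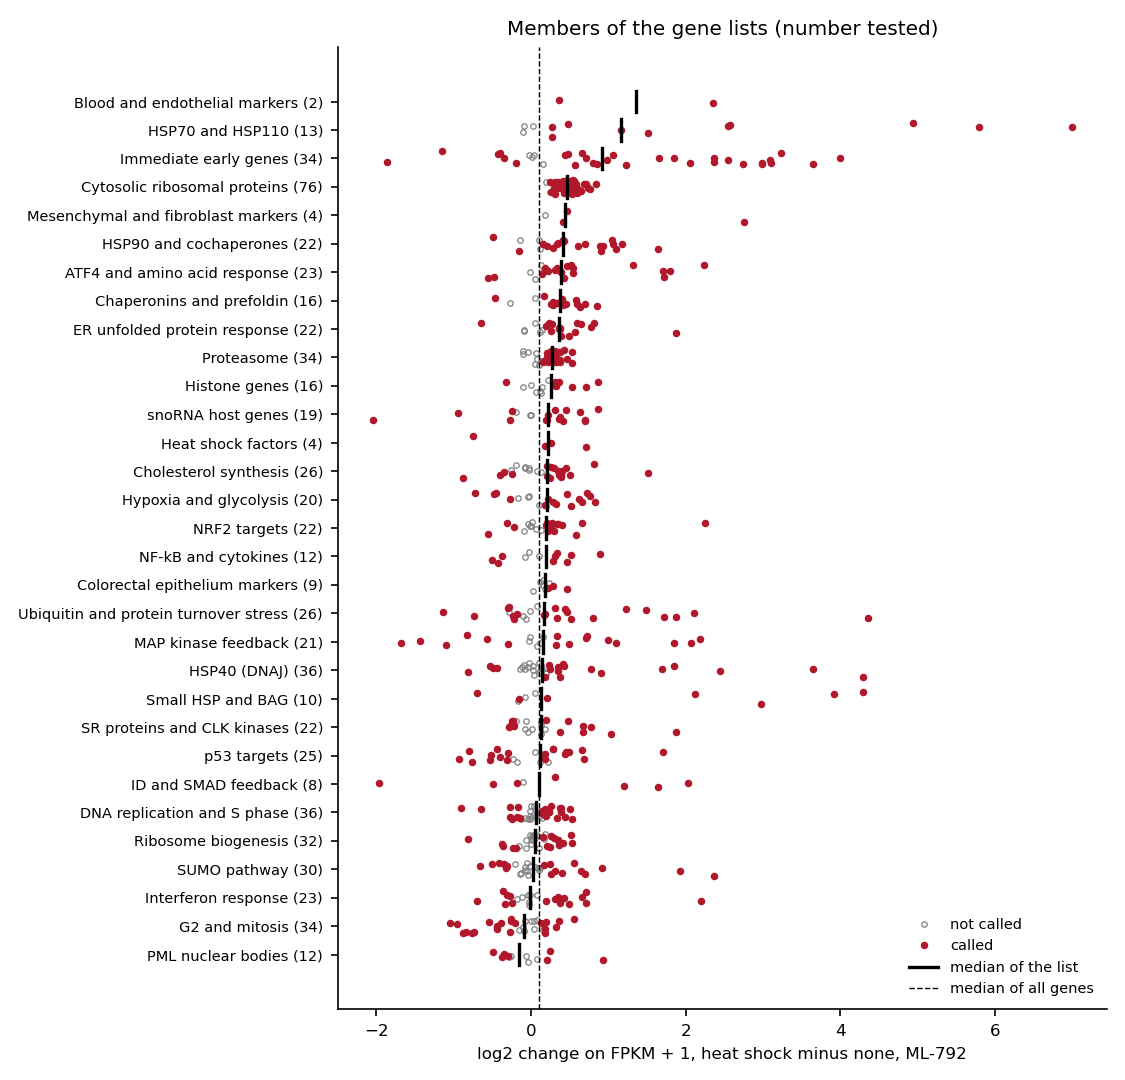
Log2 changes with heat shock under ML-792 (horizontal axis, FPKM + 1) of the members of 31 gene lists, 1 row a list, with filled points for members called at an adjusted p under 0.05, open points for the others and a bar at each list's median. The HSP70 list reaches 6.99 and has a median of 1.16, immediate early genes spread from -1.86 to 3.99, and the ribosomal protein list is narrow around 0.47.

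In other arms of protein quality control, ZFAND2A and HERPUD1 rose more than 2-fold, and no proteasome subunit did. Among 26 genes of ubiquitin and protein turnover stress, 14 were called higher and 7 lower, 6 and 1 by at least 2-fold (9 higher and 11 lower with equal totals, median change 0.17, 0.07 above the median of all genes). ZFAND2A, the arsenite-inducible AIRAP of the proteasome, had 373, 410.3 and 367 FPKM with heat and 18.3, 16.5 and 18.3 FPKM without, a change of 4.36 ± 0.07. HERPUD1, which serves degradation at the endoplasmic reticulum, changed by 1.88 ± 0.10. The conjugating enzyme UBE2D1 fell by 1.14 and the deubiquitinase USP1 by 0.74. Proteasome subunits were called higher in 25 of 34 cases and lower in 0, none by 2-fold (median change 0.28, 0.18 above the median of all genes), with PSMC4 at 0.53 ± 0.09 and PSMB3 at 0.53 ± 0.10; with equal totals 4 were higher and 8 lower.

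Immediate early genes, whose transcription needs no new protein, had 24 of 34 members tested called higher and 6 lower, 16 and 2 by at least 2-fold (median change 0.92, 0.82 above all genes, 23 higher and 9 lower with equal totals). The AP-1 subunit JUN had 56.1, 83.6 and 74.2 FPKM in heated and 3.7, 3.35 and 3.39 FPKM in unheated ML-792 cells, a change of 3.99 ± 0.12. FOS, its partner, had 36.1, 60.8 and 56.1 against 2.98, 2.78 and 3.38 FPKM, a change of 3.65 ± 0.16. EGR3, a zinc finger factor, had 9.32, 9.18 and 9.25 against 0.168, 0.205 and 0.245 FPKM, a change of 3.09 ± 0.07. EGR3 passed the filter only through its heated values. The orphan nuclear receptor NR4A1 changed by 2.99 ± 0.09. Each of the 4 was several-fold above every unheated library in every heated one. The members called lower include MYC, the growth regulator, with 55.9, 58.5 and 50.4 against 202, 203 and 197 FPKM and a change of -1.86 ± 0.06, IER5L at -1.15 ± 0.10 and ZFP36L1 at -0.40 ± 0.06.

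Feedback inhibitors of MAP kinase split. Of 21 tested, 10 were called higher and 6 lower, 4 and 3 by at least 2-fold (8 and 8 with equal totals). The nuclear phosphatases DUSP1 and DUSP8 changed by 2.07 ± 0.10 and 2.18 ± 0.12. DUSP6, the cytoplasmic ERK phosphatase, had 16, 15.1 and 16.1 FPKM with heat and 54.6, 51.8 and 51.9 FPKM without, a change of -1.68 ± 0.05, and PHLDA1 fell by 1.43. ID and SMAD feedback genes were likewise mixed, with 4 of 8 called higher and 3 lower, 3 and 1 by at least 2-fold (3 and 4 with equal totals). ID3, an inhibitor of helix-loop-helix factors, changed by 2.03 ± 0.09 and SMAD7, the inhibitory SMAD, by 1.64 ± 0.16, while the corepressor TGIF1 had 17.4, 13.1 and 11.9 against 55.8, 58.3 and 58 FPKM, a change of -1.96 ± 0.10.

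Among stress programmes, ATF4 and amino acid response genes had 17 of 23 called higher and 2 lower, 5 and 0 by at least 2-fold (median change 0.39, 0.29 above the median of all genes, 9 higher and 5 lower with equal totals). PPP1R15A, which restores translation by recruiting a phosphatase to eIF2, had 73.4, 92.6 and 73.4 FPKM with heat and 15.8, 17 and 15.3 FPKM without, a change of 2.24 ± 0.09. DDIT3 and SESN2 changed by 1.80 ± 0.13 and 1.71 ± 0.10, and the cystine carrier SLC7A11 was called lower by 0.55, a call lost once the trend on GC content and length was removed (-0.08, adjusted p = 0.0947). The unfolded protein response of the endoplasmic reticulum had 16 of 22 called higher and 1 lower, 1 by 2-fold (6 and 3 with equal totals), led by HERPUD1, with the lumenal HSP70 HSPA5 at 0.81 ± 0.07, DNAJB11 at 0.78 ± 0.06 and ERO1L, the lumenal oxidase, lower at -0.64 ± 0.08. NRF2 targets had 12 of 22 higher and 3 lower, a balance that turned, as that of all genes did, with equal totals (3 and 11). Their largest change was in HMOX1, haem oxygenase, at 49.5, 58.3 and 51.5 against 10.4, 9.77 and 10.8 FPKM and a change of 2.26 ± 0.07. Hypoxia and glycolysis genes had 11 of 20 higher and 4 lower (6 and 8 with equal totals) and p53 targets 10 of 25 higher and 9 lower (5 and 13). NF-kB and cytokine genes had 6 of 12 higher and 3 lower (3 and 6), and interferon response genes 10 of 23 higher and 6 lower (5 and 11). Over all genes 39.3% were called higher and 22.6% lower as deposited. With equal totals all 4 of these lists had more lower than higher calls, as did all genes together (1728 higher and 5424 lower). In these lists VEGFA changed by 0.77 ± 0.08, ADM by -0.72 ± 0.08, RELB by 0.90 ± 0.11, RRM2B by -0.79 ± 0.07 and STAT2, the one 2-fold interferon list member, by 2.20 ± 0.05.

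Among G2 and mitosis genes 7 of 34 were called higher and 15 lower (1 and 27 with equal totals), with cyclin F (CCNF) at -0.95 ± 0.06, cyclin A2 (CCNA2) at -0.88 ± 0.07 and the motor KIF11 at -0.76 ± 0.08. DNA replication genes had 15 of 36 higher, near the 39.3% of all genes, and 8 lower, with CDC6 at 0.50 ± 0.05 and cyclin E2 (CCNE2) at -0.90 ± 0.11. This balance turned with equal totals (3 and 21), as did that of all genes. Cytosolic ribosomal proteins were called higher in 72 of 76 cases and lower in 0, with a median change of 0.47, 0.37 above the median of all genes, a summed level of 129500 to 151800 FPKM in heated and 96770 to 104600 FPKM in unheated ML-792 cells, and none at 2-fold. RPL22 changed by 0.76 ± 0.09 and RPS27 by 0.74 ± 0.11, and with equal totals 52 were higher and 1 lower. Ribosome biogenesis genes had 11 of 32 higher, near the share of all genes, and 5 lower (2 and 19 with equal totals). GAR1, a protein of the RNA-modifying H/ACA particles, was lower at -0.81 ± 0.08. Cholesterol synthesis genes had 14 of 26 higher and 4 lower, which turned with equal totals (4 and 11) as it did over all genes, with HSD17B7 at 1.51 ± 0.06, and SC5D lower at -0.88 ± 0.07. Histone genes had 6 of 16 higher, near the share of all genes, and 1 lower (3 and 5 with equal totals), and mitochondrially encoded genes 4 of 15 higher and 3 lower (0 and 13).

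Genes of RNA processing included 2 kinases of splicing factors, CLK1 (106, 112 and 135 FPKM with heat, 30.5, 32 and 30.9 FPKM without, a change of 1.87 ± 0.09) and CLK4 (1.03 ± 0.07), in a list of 22 in which 8 were called higher and 5 lower (4 and 11 with equal totals). Both shares of that list were near the 39.3% and 22.6% of all genes. Among 19 snoRNA host genes 12 were higher and 4 lower (4 and 7 with equal totals). SNHG3 had 14.8, 16.2 and 14.9 against 68.3, 62.8 and 68 FPKM, a change of -2.05 ± 0.14, and SNHG12 fell by 0.94, while ZFAS1 changed by 0.70 ± 0.10. Of 331 genes with ZNF symbols 86 were called higher and 117 lower, 6 and 4 by at least 2-fold (29 and 186 called with equal totals), with ZNF761 at 1.96 ± 0.07 and ZNF639 at -1.54 ± 0.10.

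The SUMO pathway, the target of the drug, had 11 of 30 genes called higher and 6 lower with heat, 2 and 0 by at least 2-fold (6 higher and 17 lower with equal totals). The shares called higher and lower were near the 39.3% and 22.6% of all genes. SUMO2, a SUMO gene that stress draws on, had 691, 707 and 627 FPKM in heated and 577, 580.2 and 552 FPKM in unheated ML-792 cells, and SUMO3 did not pass, at -0.14. The subunits of the enzyme that ML-792 blocks changed by 0.26 ± 0.06 (SAE1) and 0.17 ± 0.05 (UBA2), and the direction of SUMO2, SAE1 and UBA2 turned at equal totals (-0.06, -0.03 and -0.12). The SUMO protease SENP1 changed by 0.70 ± 0.06, RANGAP1, a long-known SUMO substrate, by 0.92 ± 0.07, and the ubiquitin ligase RNF111, which reads SUMO chains, fell by 0.50. The 2-fold pair was USPL1, a SUMO protease (48.4, 51.8 and 65.6 against 12.9, 13.7 and 14.2 FPKM, 1.93 ± 0.09), and EGR2 (2.36), which is also on the immediate early list. EGR2 did not reach 1 FPKM in all 6 columns, so its place among the genes tested leaned on its heated values. USPL1 is the genomic neighbour of HSPH1, and both rose. PML nuclear body genes had 3 of 12 higher and 4 lower (1 and 8 with equal totals), with SP110 at 0.93 ± 0.09 and MORC3 at -0.49 ± 0.10. The MORC3 call was lost once the trend on GC content and length was removed (-0.09, adjusted p = 0.213).

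Outside the chaperones, the largest rises by the naming rule included genes of varied or unclear function, and some lie beside a gene that rose. PNLDC1, a trimmer of piRNAs in germ cells, had 23, 34.9 and 34.1 FPKM with heat and 0.275, 0.152 and 0.112 FPKM without, a change of 4.73 ± 0.18, and sits next to MRPL18, which changed by 1.61 ± 0.07, on the same strand. PNLDC1 passed the filter only through its heated values. HBA2, an alpha globin, had 30.7, 46.8 and 32.9 against 1.39, 1.15 and 1.08 FPKM, a change of 4.07 ± 0.17, and its near copy HBA1 4.86, 9.3 and 12.6 against 0.742, 1.11 and 0.684 FPKM. Reads of these twin genes can be assigned to either. TRIML2 had 52.8, 52.6 and 51.7 against 3.27, 2.97 and 3.57 FPKM (3.65 ± 0.06), the matrix protein THBS1 64.4, 60.1 and 66.4 against 5.75, 5.63 and 6.1 FPKM (3.24 ± 0.06) and SERPINH1 867, 1114 and 1095 against 113, 113 and 111 FPKM (3.17 ± 0.09). Among 10500 pairs of neighbouring genes tested, 19 pairs had both members 2-fold higher and 4 both 2-fold lower. Strands were known for 18 of the 19, and 10 of those were on the same strand, against 48.2% of 10439 pairs at large. The same-strand pairs include HSPA1A with HSPA1B, HBA2 with HBA1 and TMED7-TICAM2 with TICAM2. Members of these pairs are near copies or share exons, so their rises are not separate observations. Transcription that runs on past a gene into its neighbour was not tested.

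Among the largest falls by the naming rule were those of SOX9, SOX4 and TSC22D1. SOX9, a transcription factor of intestinal progenitors, had 7, 6.47 and 6.05 FPKM in heated and 32.3, 32.5 and 32.1 FPKM in unheated ML-792 cells, a change of -2.15 ± 0.06. SOX4 had 5.67, 5.57 and 5.1 against 20.6, 20.6 and 20.4 FPKM, a change of -1.74 ± 0.05. TSC22D1 had 46.5, 47.9 and 43.9 against 142, 143 and 144 FPKM, a change of -1.61 ± 0.05. In all 3 the heated values lay far below the unheated ones. UMPS, which makes UMP, changed by -2.09 ± 0.14, the ubiquitin ligase TRIM59 by -1.95 ± 0.10, GMFB by -1.72 ± 0.10, RNF139 by -1.62 ± 0.14 and SPTSSA, a subunit of the enzyme that starts sphingolipid synthesis, by -1.57 ± 0.18. Some of the strongest falls belong to genes that share exons with a read-through entry. NDUFC2, a subunit of complex I, had 18.2, 24.2 and 40.1 against 119, 128 and 119 FPKM (-2.18 ± 0.29) and KCTD14 changed by -2.34, whereas their joint entry NDUFC2-KCTD14 changed by 3.74. TMED7 fell by 1.68 while TMED7-TICAM2 changed by 1.42. The lowest change of all, -2.90 for the read-through entry C7orf55-LUC7L2, comes with 25.1, 0.437 and 0.0482 FPKM in the heated libraries, so 1 of the 3 stands at the unheated level of 24.5, 27.7 and 21.6 FPKM, and its call was lost in 5 of 12 fits that left out 1 library (changes of -4.37 to -2.06). How the authors' counting divided such reads is not given in the sources used here, and the values of these entries are uncertain. KCTD14 and C7orf55-LUC7L2 were chosen after their values were seen.

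Genes that rose and genes that fell differed in build. The 325 that rose 2-fold had a median GC content of 53% over the longest transcript and a median of 5 exons, the 118 that fell 2-fold 38.7% and 4 exons, and all tested 48.5% and 8 exons. Single-exon genes were 9.96% of the 2-fold higher, 9.35% of the 2-fold lower and 3.4% of all. Across 10836 genes with a transcript, the change with heat had a Spearman correlation with GC content of 0.44 under ML-792 and 0.03 under DMSO (genes share libraries and are not independent). In the 2168 genes lowest in GC content the median change was -0.25 under ML-792 and -0.04 under DMSO, and in the 2167 highest it was 0.26 and 0.02. Set against the mean of unheated DMSO libraries, the same correlation was 0.29, 0.52 and 0.3 in the heated ML-792 libraries, -0.081, -0.2 and -0.074 in unheated ML-792 libraries, -0.04, -0.097 and 0.18 in the heated DMSO libraries, and 0.32, -0.22 and -0.13 in the unheated DMSO libraries themselves. Once GC content and transcript length were regressed out, an alternative chosen after seeing the data, 2-fold falls under ML-792 numbered 65 in place of 118. That fit covered only the 10836 genes with a transcript, which hold 107 of the 118. The change was then over 1.5 times smaller for UBE2D1 (-0.63), GMFB (-1.12), CCNE2 (-0.50), KIF11 (-0.40), RRM2B (-0.34), BAG4 (-0.42), DNAJC10 (-0.54), VBP1 (-0.23) and RNF111 (-0.31). The same held for HSF4 (0.46), PSMB3 (0.21), PSMC4 (0.31), ZFAS1 (0.40), SAE1 (0.13) and HSF1 (0.07), whose call was lost. The part of base composition in the library preparation was not tested.

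Most of this response was shared with vehicle-treated cells. Under DMSO, 3432 genes (28.7%) were called higher and 2489 (20.8%) lower with heat, 331 (2.77%) and 41 (0.343%) by at least 2-fold (49.5% and 3.11% in either direction). Of the 325 genes 2-fold higher under ML-792, 310 were called higher under DMSO and 257 were 2-fold higher there. Of the 118 that were 2-fold lower, 104 were called lower under DMSO and 32 by 2-fold. Changes under both treatments correlated at a Pearson r of 0.845 and a Spearman rho of 0.765 across genes, a description of these libraries. The difference of the changes, ML-792 minus DMSO, was called positive for 359 genes (3%) and negative for 526 (4.4%), 7.4% in all, and 4 (0.0335%) and 12 (0.1%) differed by 2-fold (0.134%). Those counts shifted with the libraries in the fit: leaving out 1 at a time gave 11 to 1096 positive and 67 to 1442 negative calls. They were 11 and 71 without heated DMSO replicate 2, 1092 and 1442 without heated ML-792 replicate 3 and 1096 and 843 without heated DMSO replicate 3. Leaving out heated ML-792 replicate 1 gave 550 positive and 485 negative calls and replicate 2 gave 183 and 346, and without any 1 of the 6 unheated libraries 14 to 24 were positive and 67 to 85 negative. Which sign had more calls thus turned without heated DMSO replicate 3 and without heated ML-792 replicate 1. With the GC and length trend removed, in a fit of only 10836 genes, they were 95 and 170. For each gene the fit took 1 spread for all 4 groups. The median SD between replicates was 0.118 and 0.098 in heated ML-792 and DMSO cells, and 0.046 and 0.0431 in unheated ones. A call lost without 1 library therefore need not mean that replicates disagreed, and the part of unequal spread was not tested. Of the 45 genes named here with a called difference, 18 kept the call in each of the 12 fits that left out 1 library: the larger changes of HSPA6, UBE2B and ATN1 and the smaller or opposite ones of ARRDC3, DNAJB9, DNAJC10, DUSP5, DUSP6, ID2, KLF5, KLF6, MYC, RGS2, RNF139, SOX9, TRIB1, TSC22D1 and ZFP36L1.

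**Figure D4:**
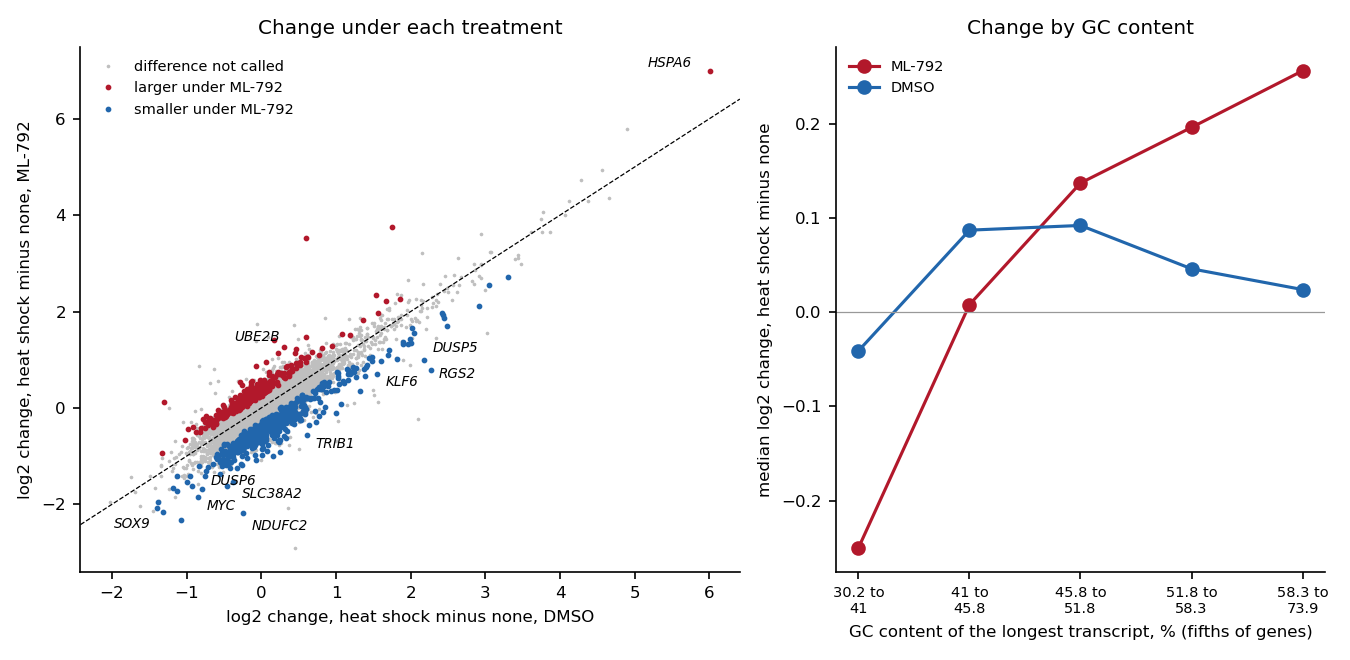
Left, log2 change with heat shock under ML-792 against that under DMSO (FPKM + 1), 1 point a gene, with genes whose difference was called in colour. Right, the median change in 5 equal groups of genes by GC content, under ML-792 and under DMSO: the ML-792 medians climb from -0.25 to 0.26, while the DMSO medians stay between -0.04 and 0.09.

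For chaperone genes, differences between treatments were called at 1 positive and 1 negative of 13 in the HSP70 and HSP110 list, 2 positive and 2 negative of 36 in the HSP40 list and 1 positive and 1 negative of 22 in the HSP90 list. The small HSP and BAG list had 0 positive and 1 negative of 10 and the chaperonin and prefoldin list 0 positive and 1 negative of 16. Over all genes tested 7.4% were called. HSPA6 was at 54.8, 62.2 and 76.5 FPKM in heated DMSO cells and 0.0255, 0 and 0 FPKM in unheated ones, below each of the heated ML-792 values, and its change was larger under ML-792 by 0.99 ± 0.16 (adjusted p = 0.00938). HSPH1 was at 949.7, 1099 and 1019 FPKM in heated and 119, 126 and 123 FPKM in unheated DMSO cells, and its change was smaller under ML-792 (-0.50 ± 0.11, adjusted p = 0.0292, lost in 7 of 12 fits that left out 1 library, with an adjusted p up to 0.0888). Heated HSPH1 levels overlapped between the treatments. Its unheated ML-792 libraries all lay above the unheated DMSO libraries, so the difference lies in the unheated level. For HSPA1B the difference was 0.37 ± 0.15 with a 95% interval of 0.04 to 0.69, for DNAJB1 -0.09 ± 0.12 with -0.35 to 0.17, for BAG3 0.18 ± 0.12 with -0.08 to 0.43 and for HSP90AA1 -0.15 ± 0.09 with -0.35 to 0.04, and none of these passed. ST13 changed more under ML-792 (0.46 ± 0.13), and PTGES3, HSPB11, DNAJB9 and DNAJC10 changed less or the other way, with differences of -0.72, -0.58, -0.91 and -0.72. The call was lost in 10 of 12 such fits for ST13 (adjusted p up to 0.112) and in 7 for PTGES3 (up to 0.0885) and HSPB11 (up to 0.0864). PTGES3, HSPB11 and DNAJB9 were called higher under DMSO and not called under ML-792. DNAJB9 was chosen after its values were seen. USPL1, like its neighbour HSPH1, changed less under ML-792 (-0.50 ± 0.13, lost in 9 of 12 fits, adjusted p up to 0.117).

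The 6 largest called differences on the negative side by the naming rule were those of NDUFC2, RGS2, DUSP5, TRIB1, SLC38A2 and RNF139. DUSP5, a nuclear ERK phosphatase, had 125, 135 and 134 FPKM in heated and 65.5, 64.7 and 66.3 FPKM in unheated ML-792 cells, and 219, 256 and 265 FPKM in heated and 51.8, 54.3 and 54 FPKM in unheated DMSO cells, so that it rose under both and less under ML-792 (-1.19 ± 0.10, adjusted p = 5e-05). RGS2, a G protein regulator, had 36.7, 35.1 and 36.9 against 18.4, 22 and 21.2 FPKM under ML-792 and 59.6, 67.5 and 69.9 against 12.6, 13.1 and 12.7 FPKM under DMSO (-1.47 ± 0.10, adjusted p = 1.99e-05). TRIB1, a pseudokinase, had 59.6, 61.2 and 67.1 against 93.5, 91 and 95.2 FPKM under ML-792 and 131, 149 and 148 against 91, 94 and 94.4 FPKM under DMSO, a fall under the drug and a rise under vehicle (-1.18 ± 0.09, adjusted p = 2.86e-05). The amino acid carrier SLC38A2 had 47.9, 43.5 and 79.3 against 159.9, 161 and 162 FPKM under ML-792 and 131, 144 and 117 against 166, 171 and 171 FPKM under DMSO (-1.16 ± 0.23). RNF139 had 9.69, 5.7 and 8.85 against 26, 26.5 and 26.6 FPKM under ML-792 and 17.8, 18.9 and 15.3 against 25.1, 25.1 and 22.7 FPKM under DMSO (-1.16 ± 0.19), and the difference for NDUFC2 was -1.94 ± 0.41. The calls for SLC38A2 and NDUFC2 were lost in 7 and 8 of 12 fits that left out 1 library (adjusted p up to 0.0735 and 0.0848). In RGS2 and DUSP5 the unheated ML-792 libraries also lay above the unheated DMSO libraries, while those of TRIB1 overlapped.

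MYC fell under both treatments and further under the drug, with 116, 120.3 and 125 FPKM in heated and 219.6, 219 and 214 FPKM in unheated DMSO cells and a difference of -1.01 ± 0.08 (adjusted p = 5.68e-05). DUSP6 had 23.3, 23.9 and 22.9 against 41.7, 41.7 and 40.4 FPKM under DMSO (-0.89 ± 0.07) and SOX9 9.52, 9.53 and 9.34 against 26.2, 24.2 and 24.4 FPKM (-0.84 ± 0.08). ID2 was at 66.3, 65.2 and 73.9 FPKM in heated and 72.7, 75.8 and 71.7 FPKM in unheated ML-792 cells, overlapping, and at 85.7, 92.6 and 90.9 against 40.9, 48.4 and 43.6 FPKM under DMSO (-1.11 ± 0.10). For DUSP6, SOX9 and ID2 the unheated ML-792 libraries lay above the unheated DMSO libraries, and for MYC below them. KLF6 and KLF5 showed differences of -0.85 and -1.03, and ARRDC3, an arrestin relative, one of -1.16. ID2, KLF5, KLF6 and ARRDC3 were chosen after their values were seen. Genes called in opposite directions under both treatments numbered 63.

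Called differences on the positive side, besides HSPA6 and the uncertain entry NDUFC2-KCTD14 (1.99), included that of UBE2B. UBE2B, a ubiquitin-conjugating enzyme, had 79.5, 87 and 69.1 FPKM in heated and 32.3, 33.3 and 33 FPKM in unheated ML-792 cells and 41.7, 45.1 and 48.7 against 30.5, 33.4 and 32.9 FPKM under DMSO (0.76 ± 0.11, adjusted p = 0.00546). SNHG9 and SNAPC5 had differences of 0.93 and 0.73, ATN1 one of 0.62 and MID1IP1 one of 0.58. The calls of SNHG9, SNAPC5 and MID1IP1 were lost in 10, 5 and 6 of 12 fits that left out 1 library (adjusted p up to 0.108, 0.0597 and 0.0724). HMOX1 rose more under the drug as well, by 0.40 ± 0.10, in a call lost in 9 of 12 such fits (adjusted p up to 0.108).

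**Figure D5:**
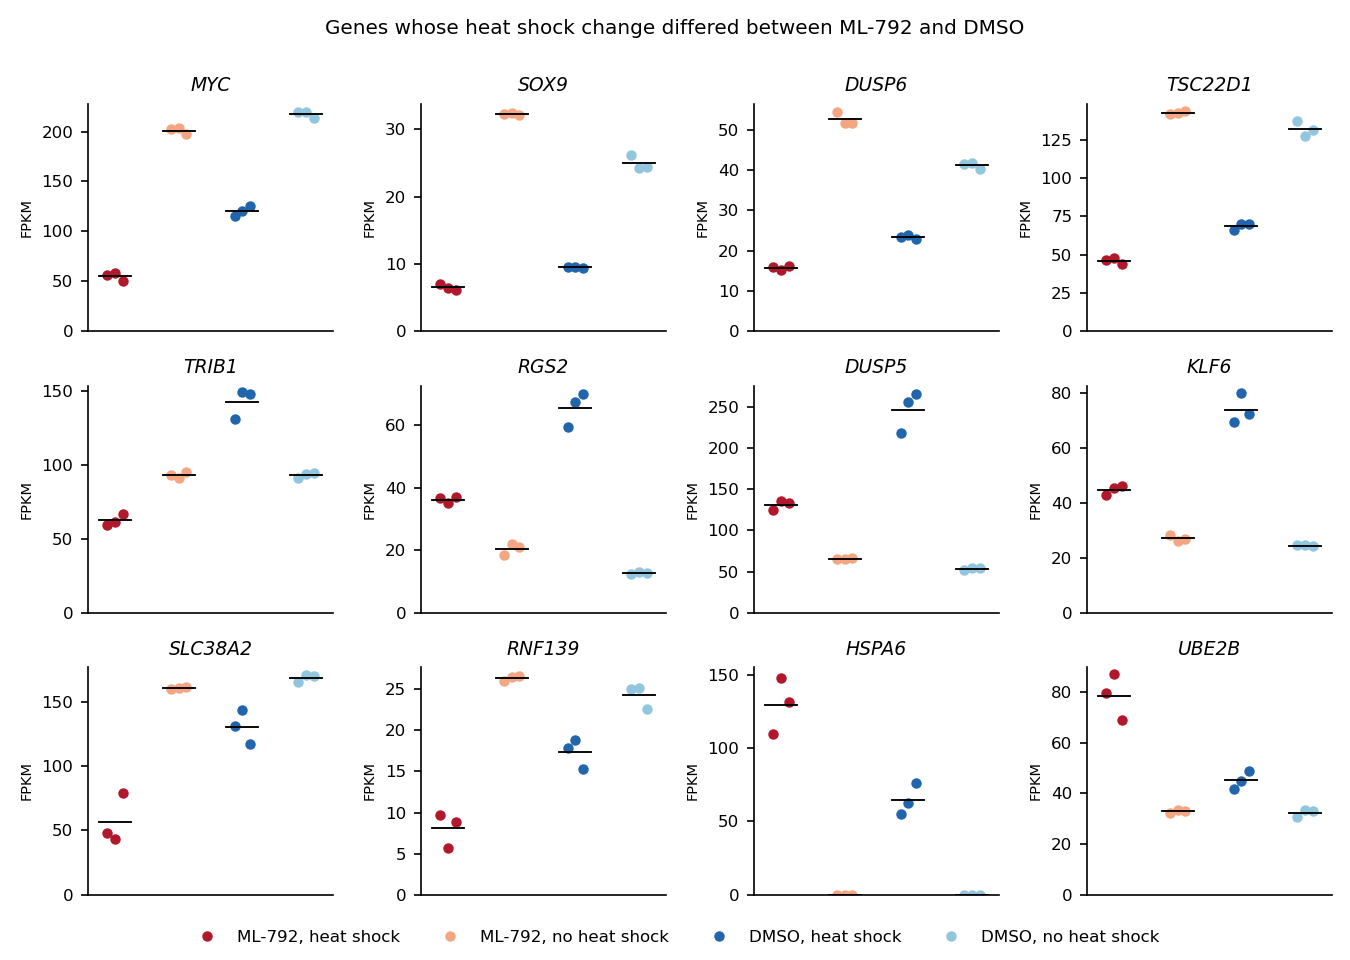
FPKM from 0 in each of the 12 libraries for 12 genes with a called difference between treatments, by group from heated ML-792 and unheated ML-792 cells to heated and unheated DMSO cells. MYC, SOX9 and DUSP6 fall further with heat under ML-792, TRIB1 falls under ML-792 and rises under DMSO, and HSPA6 and UBE2B reach higher heated levels under ML-792.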

How the data were processed

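Messenger RNA of HCT116 cells was sequenced by the study with a stranded mRNA kit as paired reads of 50 bases, per the labels' protocols. The authors deposited 1 table of FPKM values for the 30 libraries, a unit that scales a gene by its length and its library. The file header names no unit: FPKM comes from the notes on the series used here, and the values, which are not whole and sum to different totals, do not contradict it. DESeq2 1.10.1 stands in the submitters' processing notes with no role. Which aligner, build and annotation made the FPKM values is not given in the sources used here. True depth is unknown, so no counting interval is given.

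The 1 row named unknown (0.00017 to 0.00083% of a library) was left out. Genes with at least 1 FPKM in 3 or more of the 6 ML-792 columns were tested in 1 limma 3.58.1 fit (R 4.3.3) on log2(FPKM + 1), with 12 libraries in 4 groups, a trend in the variance and robust estimation, no covariate, and Benjamini-Hochberg adjustment over 11955 genes. Fold changes on that scale understate those of low genes, and ± values of changes are standard errors. No 2 replicates were identical. On simulated data of the ML-792 comparison with 11955 genes, 84 of 100 genes changed by 0.5 on the log2 scale and 98 of 100 changed by 1 were recovered. Few genes were changed there, and noise was drawn separately for each gene, without shifts shared by a library. The difference between treatments was not simulated, and calls among unchanged genes are not reported here. This recovery is therefore no check on the calls in the real data. Tables and plots used Python 3.11.15, pandas 2.3.3, scipy 1.17.1 and matplotlib 3.10.9.

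Named genes are the 14 largest rises and falls among called genes with a mean above the median of those tested (10.6 FPKM) and groups that do not overlap, the 6 largest differences between treatments on each side by the same filters, up to 3 called members of each of 33 gene lists per direction, members of the HSP70, HSP90, small HSP, heat shock factor and SUMO lists, and marker genes. Genes outside that rule are named as neighbours, promoter matches or copies of one of these, or were chosen after their values were seen. The genes, the comparison and the lists were chosen with earlier results of these data known, so no list is independent support. Values of some listed genes are not reported here. Promoter windows were read from RefSeq (GRCh38.p14) by symbol, and neighbours and transcripts from GENCODE v29 where symbols matched. Alternatives were 2 other scalings, 2 other pseudocounts (0.1 and 5), 2 other filters, the 6 columns alone, library weights, no trend or robust step and each library left out. A filter on all 6 columns and the removal of a trend on GC content and transcript length were added after seeing the data.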

Additional observations from a re-analysis of the deposited data

Results flagged for a closer look

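Genes below had a change with heat shock under ML-792 that differed from the change under DMSO by the test of the difference itself (limma, 12 libraries, adjusted p under 0.05), each given as the ML-792 change minus the DMSO change on the log2(FPKM + 1) scale. Of these 45 genes, 18 kept the call in every fit that left out 1 library. The share called over all genes was 7.4%.

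Among genes that kept it, the chaperone HSPA6 differed by 0.99, UBE2B by 0.76 and ATN1 by 0.62. Signalling and early response genes differed by -1.47 (RGS2), -1.19 (DUSP5), -1.18 (TRIB1), -1.16 (ARRDC3), -0.89 (DUSP6), -0.85 (KLF6), -0.68 (TSC22D1) and -0.63 (ZFP36L1). Transcription factors and their inhibitors differed by -1.11 (ID2), -1.03 (KLF5), -1.01 (MYC) and -0.84 (SOX9). RNF139, a ubiquitin ligase of the endoplasmic reticulum, differed by -1.16, DNAJB9 by -0.91 and DNAJC10 by -0.72.

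Of the genes that lost the call in at least 1 such fit, those with heat shock protein symbols, cochaperones and a prefoldin subunit differed by -0.50 (HSPH1), -0.34 (HSPA5), -0.72 (PTGES3), -0.58 (HSPB11, by symbol only), -0.56 (VBP1) and 0.46 (ST13). Genes of ubiquitin and SUMO removal or transfer differed by -0.50 (USPL1), -0.76 (USP1), -0.60 (UBE2D1) and -0.56 (TRIM59). Metabolic and transport genes differed by -1.16 (SLC38A2), -0.69 (UMPS), -0.46 (SC5D), -0.38 (ERO1L), 0.40 (HMOX1) and 0.58 (MID1IP1). The entries of one locus that share exons differed by -1.94 (NDUFC2), -1.26 (KCTD14) and 1.99 (NDUFC2-KCTD14). Others differed by 0.93 (SNHG9), 0.73 (SNAPC5), 0.35 (FAM149A), -0.58 (CLK1), -0.40 (CCNA2), -0.59 (GMFB), -0.54 (ZNF639) and -0.45 (ZNF761).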

How the results depend on the processing

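No paired analysis was possible because the sample titles give no replicate number and no pairing of libraries between groups. Of 143 named genes called under ML-792, 124 kept the call in all alternatives run, and 18 of 45 called differences did. Equal totals gave 1728 higher and 5424 lower genes under ML-792, 362 lower by 2-fold, 1447 and 5140 under DMSO, and 43 positive and 220 negative differences. Median-of-ratios scaling gave 224 and 861 differences, testing all genes above 0 gave 81 and 140, and removing the GC and length trend, which tests fewer genes, gave 95 and 170, with 65 genes 2-fold lower. A pseudocount of 0.1 gave 536 and 236 genes 2-fold higher and lower, a pseudocount of 5 gave 134 and 37, and a filter at 5 FPKM, which tests fewer genes, 208 higher. Leaving out 1 library gave 4105 to 4968 higher and 2370 to 2790 lower under ML-792, 305 to 350 and 91 to 163 by 2-fold, 2796 to 3827 and 2026 to 2771 under DMSO, and 11 to 1096 positive and 67 to 1442 negative differences. The cause of these shifts was not tested beyond the scaling, the pseudocount and the number of genes that define them. Directions turned with equal totals in the ML-792 change of these genes, with values of -0.232 for BAG2, -0.112 for HSBP1, -0.027 for HSF1, -0.227 for HSPA12A, -0.024 for HSPA9, -0.072 for KRT18, -0.032 for SAE1, -0.055 for SUMO2 and -0.121 for UBA2. Directions turned with the GC and length trend removed in the ML-792 change of these genes, with values of 0.015 for BAG5, 0.029 for DNAJB14, 0.048 for FKBP5 and 0.417 for HSPA13. The number of libraries, 3 a group, and an unknown depth limit the precision of low genes.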

Other observations

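Most genes that changed 2-fold under ML-792 belong to none of the 33 lists. Of the 325 that rose, 21 (6.46%) were in the heat shock protein lists, which hold 0.836% of all genes tested, 16 (4.92%) were on the immediate early list (0.284% of all), and 257 were in no list. Of the 118 that fell, 0 were in the heat shock protein lists, 2 (1.69%) on the immediate early list and 105 in no list.

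Neighbouring genes that both rose 2-fold, chosen here after their values were seen, stood on the same strand or on opposite strands. STIP1 (1.04) and FERMT3 (1.46) share a strand, as do PPP1R15A (2.24), NUCB1 (1.86) and DHDH (1.14). ENGASE (2.99) and RBFOX3 (2.04) lie on opposite strands. FERMT3 had 3.2, 3.72 and 3.85 FPKM in heated and 0.693, 0.606 and 0.679 FPKM in unheated ML-792 cells, and NUCB1 had 103, 117 and 97.7 against 28.5, 28.1 and 28.6 FPKM. FERMT3 passed the filter only through its heated values. Shorter transcripts had higher changes, with medians of 0.27 in the shortest and 0.004 in the longest of 5 equal groups of genes by length under ML-792, and 0.18 and -0.04 under DMSO.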
